A study of Mus musculus with 12 samples.

Results

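The genes described here encode the cathepsins, the proteases of the lysosome, and the subunits of the vacuolar proton pump (V-ATPase) that acidifies it, together with Lamp1, Lamp2 and Tfeb. They were taken by symbol: every probe set with 1 gene symbol of the form Cts plus a single letter or beginning with Atp6v, plus the 3 genes named. The rule used no measured value, but was chosen with earlier results of these data known. It found 41 genes of 18193 on 81 probe sets, and where a gene had several, its values are those of the probe set that was brightest on average over the 12 arrays. For 28 of the 41 genes this average was 64 or more on the linear intensity scale, and 13 were dimmer. Atp6v0c and Atp6v1g3 were not analysed here.

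Total RNA of hearts of male C57BL/6J mice, aged 8 to 10 weeks, was hybridised to 12 Affymetrix expression arrays, 3 in each of 4 groups. The groups are knockout-labelled hearts after DOX, WT hearts after DOX, untreated knockout-labelled hearts and untreated WT hearts. DOX is doxorubicin, an anthracycline used against cancer that injures the heart. Per the labels it was given as 1 dose of 15 mg/kg, the hearts were taken after 5 days, and the mice without DOX had no treatment. The deposited labels call the altered genotype CHIP knockout, whereas the methods of the study describe mice with a cardiac CHIP transgene and their WT littermates, another dose, other ages and a saline control. CHIP, the product of Stub1, is a ubiquitin ligase and cochaperone. On the brighter probe set of Stub1 the arrays labelled knockout were the higher ones, with 5561 to 8723 in knockout-labelled hearts after DOX against 1930 to 1950 in WT hearts after DOX, and with 8762 to 9817 in untreated knockout-labelled hearts against 1790 to 1857 in untreated WT hearts. The label therefore went against the level of its gene on this probe set, and a second Stub1 probe set overlapped between the genotypes. The name knockout-labelled is used throughout, and each genotype difference is between arrays so labelled. No source states which promoter drives the transgene, or whether an array holds the RNA of 1 heart, so p-values measure the spread between these arrays.

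The array medians lay between 28.9 and 30.4, and the 8 cardiomyocyte markers were bright on all 12 arrays. The array that correlated least with its own group was replicate 3 of the untreated knockout-labelled hearts (mean r = 0.99 across probe sets). It was also the array with the highest summed intensity of 12 macrophage markers, 10861, and of 7 fibroblast markers, 21295. Its effect on a result is given beside that result where a call changed without it.

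Lysosomes degrade proteins, lipids and whole organelles that reach them by endocytosis or autophagy. Heart muscle cells, which are not replaced, depend on them for the turnover of mitochondria and contractile proteins. The pump has a membrane sector, V0, through which protons pass, and a cytosolic sector, V1, which hydrolyses ATP. The acid pH it builds activates the cathepsins, most of which are cysteine proteases, while cathepsins D and E are aspartic and cathepsins A and G are serine proteases. Lamp1 and Lamp2 encode the main glycoproteins of the lysosomal membrane. Tfeb encodes a transcription factor that raises the expression of lysosomal genes through a promoter sequence with the core CACGTG, called the CLEAR element.

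Promoters of the rule's genes are shown because several of them hold this core. Of the 41 genes, 31 had an entry in the RefSeq promoter table (build GRCm38.p6, 250 bases before to 50 bases after the start of transcription), with 35 promoters in all. CACGTG, which reads the same on both strands, was found in 9 of the 35 (25.7%), against 7.15% of all 32851 promoters of the same length. Its extended form TCACGTGA, which contains it, was found in 5 of the 35 (14.3%), against 0.974% of all. The genes with a match were Atp6v0b, Atp6v0d1, Atp6v0e, Atp6v1a, Ctsa, Ctsd, Ctsf, Ctsl and Lamp1. A match is a description of the letters and no sign of binding. Stretches of 150 bases are printed for 6 of these genes, 2 that passed a test below (Ctsd, Ctsl), 3 with all knockout-labelled arrays above all WT arrays with and without DOX (Lamp1, Atp6v0b, Atp6v0e), and 1 with them below after DOX (Atp6v0d1). They run 5′ to 3′ on the strand of the gene, with each CACGTG in capitals.
Ctsd, chr7:142387828-142387977, minus strand, 150 bases to 1 base before the start: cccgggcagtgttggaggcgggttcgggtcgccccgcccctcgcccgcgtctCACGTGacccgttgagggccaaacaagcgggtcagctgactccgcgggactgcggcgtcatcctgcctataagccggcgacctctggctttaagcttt
Ctsl, chr13:64370621-64370770, minus strand, 250 to 101 bases before the start: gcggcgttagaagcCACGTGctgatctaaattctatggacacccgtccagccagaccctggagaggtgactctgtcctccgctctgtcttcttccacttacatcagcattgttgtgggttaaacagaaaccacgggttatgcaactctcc
Lamp1, chr8:13159041-13159190, plus strand, 120 bases before to 30 after the start: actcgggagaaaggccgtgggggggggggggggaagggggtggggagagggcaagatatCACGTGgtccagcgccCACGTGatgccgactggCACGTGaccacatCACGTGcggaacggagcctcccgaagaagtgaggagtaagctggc
Atp6v0b, chr4:117887300-117887449, minus strand, 120 bases before to 30 after the start: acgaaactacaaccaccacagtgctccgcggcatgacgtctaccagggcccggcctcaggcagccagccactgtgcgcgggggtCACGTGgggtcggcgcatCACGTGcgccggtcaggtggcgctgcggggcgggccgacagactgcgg
Atp6v0e, chr17:26676276-26676425, plus strand, 120 bases before to 30 after the start: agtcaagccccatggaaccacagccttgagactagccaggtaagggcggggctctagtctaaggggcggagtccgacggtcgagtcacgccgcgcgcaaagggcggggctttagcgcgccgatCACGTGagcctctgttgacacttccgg
Atp6v0d1, chr8:105566035-105566184, minus strand, 120 bases before to 30 after the start: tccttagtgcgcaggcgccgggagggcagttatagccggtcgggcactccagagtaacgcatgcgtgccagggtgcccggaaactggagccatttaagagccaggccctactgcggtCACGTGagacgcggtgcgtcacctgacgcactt
The printed stretch of Lamp1 held 4 copies and that of Atp6v0b held 2, while the other stretches held 1 each. Over its whole length the Ctsd promoter held 2 copies, so that its stretch does not show them all. In Ctsd, Atp6v0e and Atp6v0d1 the printed copy was part of TCACGTGA.

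Few of these genes passed the test in any comparison. Each probe set was tested with limma on log2(intensity + 32) in 1 model of the 4 group means, and a gene was called at a Benjamini-Hochberg adjusted p under 0.05 over all 45037 probe sets. Fold changes are on this scale and carry the standard error (SE) of the fit, and the added 32 understates the change of dim genes. After DOX, 1 of the 41 genes was called between the genotypes, where 0.941% of all probe sets were called. Without treatment 3 of 41 were called between the genotypes, against 1.81% of all probe sets. In knockout-labelled hearts DOX called 0 of 41, against 2.2% of all probe sets, and in WT hearts DOX called 1 of 41, against 3.06%. All 5 calls were of higher values, in knockout-labelled against WT hearts or in DOX against untreated hearts. The DOX and genotype comparisons share arrays with each other. The median log2 fold change of the 41 genes was 0.04 between the genotypes after DOX, 0.02 between them without treatment, -0.05 for DOX in knockout-labelled hearts and -0.02 for DOX in WT hearts. The medians of all probe sets were 0.01 between the genotypes after DOX, -0.00 between them without treatment, 0.01 for DOX in knockout-labelled hearts and -0.01 for DOX in WT hearts. The calls lay in 4 single genes, Ctsb, Ctsd, Atp6v0a2 and Ctsl.

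**Figure D1:**
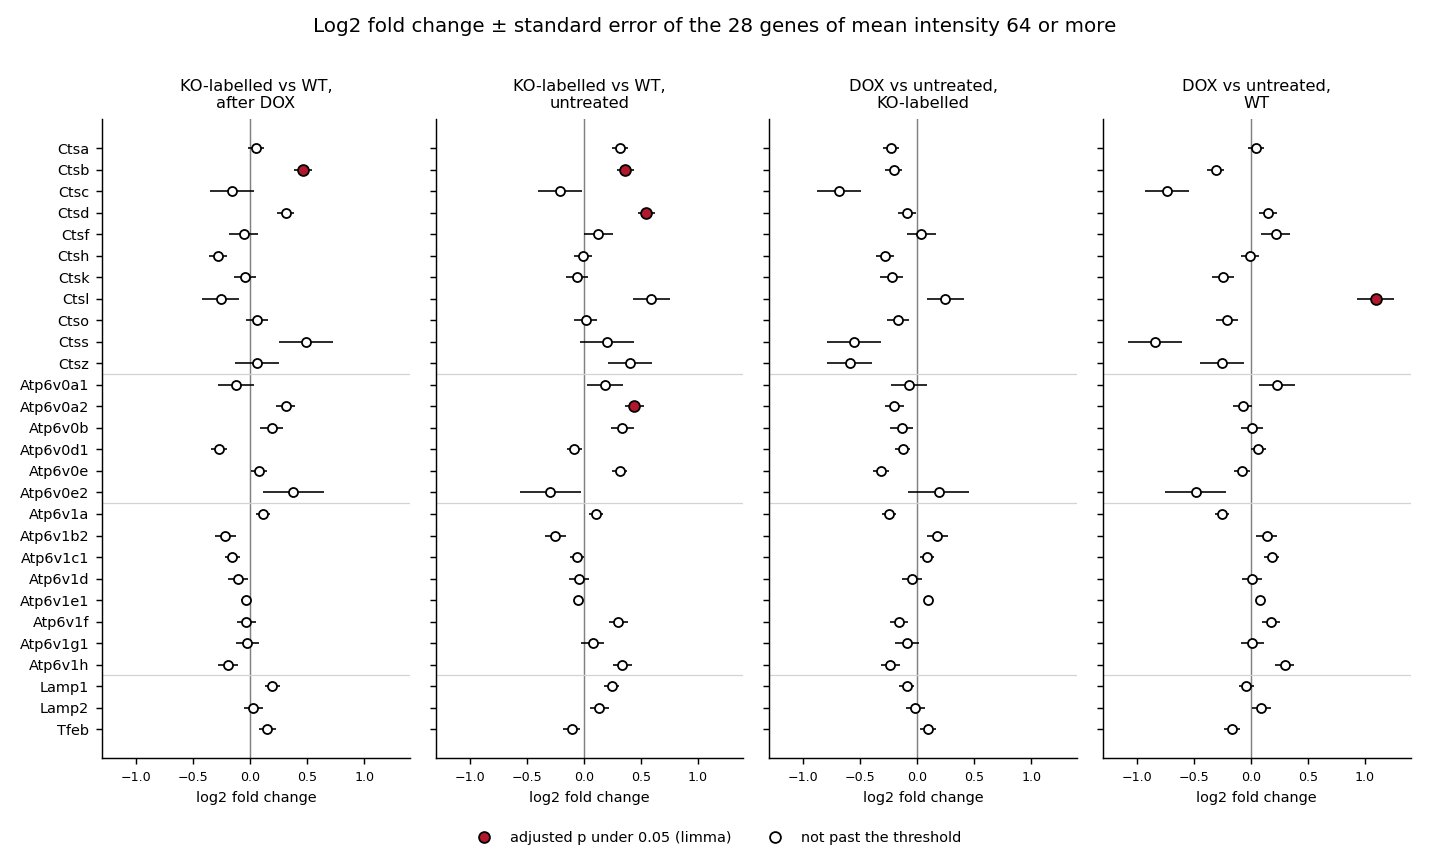
Log2 fold change (horizontal axis, bars ± the standard error of limma) of the 28 genes of mean intensity 64 or more, listed down the vertical axis as cathepsins, V0 subunits, V1 subunits and the other 3 genes. Filled points passed the adjusted p of 0.05: Ctsb in both genotype comparisons, Ctsd and Atp6v0a2 between the untreated genotypes, and Ctsl for DOX in WT hearts.

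Cathepsins B and D were higher in the knockout-labelled hearts. Ctsb (Entrez gene 13030), which encodes an abundant lysosomal cysteine protease, read 3270.4, 3756 and 3298 in knockout-labelled hearts after DOX against 2394, 2421 and 2634 in WT hearts after DOX. Without treatment it read 4151, 3564 and 4246 in knockout-labelled hearts against 3149.9, 2941 and 3152 in WT hearts. In both pairs every knockout-labelled array lay above every WT array. The difference after DOX was a log2 fold change of 0.46 ± 0.08 (SE, adjusted p = 0.032), and without treatment a log2 fold change of 0.37 ± 0.08 (SE, adjusted p = 0.047). The 4 dimmer Ctsb probe sets had positive log2 fold changes in both comparisons, from 0.03 to 0.59 after DOX and from 0.10 to 0.53 without treatment, and none of these passed the test.

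Ctsd (Entrez gene 13033) encodes the main aspartic protease of the lysosome, which helps to activate other cathepsins. It read 3569, 3797 and 3285 in knockout-labelled hearts after DOX and 3071, 2588 and 2919 in WT hearts after DOX. In untreated hearts it read 3835, 3463 and 4082 in knockout-labelled arrays and 2661, 2549 and 2514 in WT arrays. Again the genotypes did not overlap with or without DOX. Only the untreated difference passed the test, with a log2 fold change of 0.55 ± 0.08 (SE, adjusted p = 0.015), while that after DOX was a log2 fold change of 0.31 ± 0.08 (SE, adjusted p = 0.098). The change of the genotype difference with DOX, tested as the interaction, did not pass (adjusted p = 0.58).

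**Figure D2:**
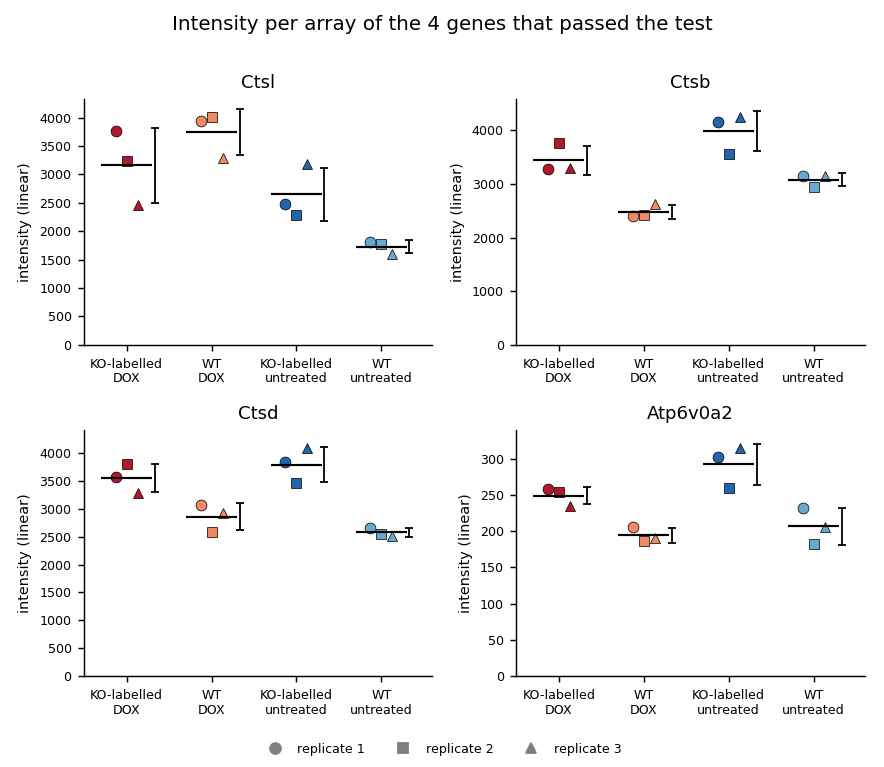
Linear intensity (vertical axis, from 0) of Ctsl, Ctsb, Ctsd and Atp6v0a2 on each array. Symbols are replicates, short lines show the mean of a group and error bars its SD over 3 arrays. Ctsb, Ctsd and Atp6v0a2 lie higher in knockout-labelled than in WT hearts with and without DOX, and Ctsl is lowest in untreated WT hearts, between 1607 and 1812.

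With 1 array left out at a time, the log2 fold change of Ctsb lay between 0.40 and 0.51 after DOX and between 0.32 and 0.44 without treatment, and that of Ctsd without treatment between 0.50 and 0.61, while the adjusted p, from fewer arrays, crossed the threshold in several of these fits. The Ctsb call after DOX ended without knockout-labelled DOX replicate 2 (adjusted p = 0.11) or 3 (0.0996), and without WT DOX replicate 1 (0.083) or 2 (0.11). The untreated Ctsb call ended without knockout-labelled untreated replicate 1 (0.11) or 3 (0.14), and without WT untreated replicate 1 (0.10), 2 (0.17) or 3 (0.12). The Ctsd call ended without WT untreated replicate 2 (0.071) or 3 (0.056). Without knockout-labelled untreated replicate 3, the array that stood apart, the Ctsd log2 fold change was 0.50 and its adjusted p = 0.040. In a fit to only the 6 arrays compared, both Ctsb calls ended (adjusted p = 0.082 after DOX and 0.12 without treatment), and the untreated one also with array medians subtracted (0.051) or 64 added before the log2 (0.052). With the test named in the methods of the study, run on each pair of groups alone, neither Ctsb call nor the Ctsd call passed after Benjamini-Hochberg adjustment (adjusted p = 0.29 for Ctsb after DOX, 0.34 for Ctsb and 0.23 for Ctsd without treatment).

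Summed fibroblast markers also differed between the genotypes, with and without DOX. Macrophage sums did so only after DOX, and cardiomyocyte sums only without treatment. All 12 macrophage markers were above 0 on every array, and 10 had a mean of 64 or more. Their summed intensity was 5057 to 6104 in knockout-labelled against 3465 to 4695 in WT hearts after DOX, and 5350 to 10861 in knockout-labelled against 5743 to 7355 in WT hearts without treatment. The 7 fibroblast markers summed to 11808 to 12592 in knockout-labelled against 9441 to 10484 in WT hearts after DOX, and to 14406 to 21295 in knockout-labelled against 10920 to 13860 in WT hearts without treatment. The fibroblast sums did not overlap between the genotypes in either pair, whereas the macrophage sums were apart after DOX and overlapped without treatment. The 8 cardiomyocyte markers summed to 130149 to 138563 in knockout-labelled against 125444 to 146727 in WT hearts after DOX, which overlapped, and to 135666 to 145420 in knockout-labelled against 147191 to 152081 in WT hearts without treatment, where the knockout-labelled arrays were all lower. The sums of neutrophil, T and NK cell, mast cell and endothelial markers overlapped between the genotypes in both pairs. The sums weigh the brightest markers most, such as Dcn among the fibroblast markers (mean 8100). Taken singly, all 7 fibroblast markers had positive log2 fold changes between the genotypes in both pairs. Of the macrophage markers 9 were positive and 3 negative after DOX. Of the cardiomyocyte markers 5 were negative and 3 positive without treatment. All 5 endothelial markers had a negative log2 fold change after DOX, with a median of -0.19. The part of these markers in the differences of the cathepsins was not tested. In RNA of whole hearts fewer cells of a type and less RNA per cell cannot be told apart.

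In the pump, the genotype difference that passed was in the membrane sector. Atp6v0a2 (Entrez gene 21871), 1 of the genes for the large a subunit that carries the proton path, read 258, 254 and 235 in knockout-labelled and 206, 187 and 190.1 in WT hearts after DOX. Without treatment it read 302, 259 and 314 in knockout-labelled and 232, 182 and 206 in WT hearts. The genotypes were apart in both pairs. The difference without treatment was a log2 fold change of 0.44 ± 0.08 (SE, adjusted p = 0.034), and after DOX a log2 fold change of 0.31 ± 0.08 (SE, adjusted p = 0.11). The untreated call ended without knockout-labelled untreated replicate 1 (adjusted p = 0.086) or 3 (0.11), without WT untreated replicate 2 (0.12) or 3 (0.11), in a fit to only the 6 arrays compared (0.14) and with the test named in the methods (0.37), while over the left-out arrays its log2 fold change lay between 0.37 and 0.52. Another Atp6v0a2 probe set, of mean 187, had 0.45 (standard error 0.11, adjusted p = 0.068) without treatment, and a dim one had 0.03.

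Atp6v0b, for a proton-binding c-type subunit, had all 3 knockout-labelled arrays above the WT arrays with and without DOX. It read 1257, 1257 and 1202 in knockout-labelled and 1136, 1108 and 1006 in WT hearts after DOX, and 1354, 1159 and 1625 in knockout-labelled and 1131, 1040.1 and 1057 in WT hearts without treatment. The log2 fold changes were 0.19 after DOX (adjusted p = 0.41) and 0.34 without treatment (adjusted p = 0.14), so this probe set did not pass. A dimmer Atp6v0b probe set of mean 186 did pass in both, with 0.20 (adjusted p = 0.036) after DOX and 0.34 (adjusted p = 0.0046) without treatment. It was also called for DOX in knockout-labelled hearts, at -0.16 (adjusted p = 0.045). The suffix of both probe sets marks probes that may match other transcripts. The remaining Atp6v0b probe set, of mean 470, had 0.12 after DOX and 0.35 without treatment and was not called in either.

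Atp6v0e, for the small e subunit, showed the same order of genotypes. It read 833, 815 and 807 in knockout-labelled and 774, 767 and 779.7 in WT hearts after DOX, and 989.7, 932 and 1172 in knockout-labelled and 788, 805 and 868 in WT hearts without treatment. The untreated difference of 0.31 (standard error 0.07) had an adjusted p of 0.057, just short of the threshold. Atp6v0d1, for the d subunit that joins V0 to the central stalk, lay the other way after DOX, at 524, 498 and 532 in knockout-labelled against 631, 657 and 611 in WT hearts. Its log2 fold change of -0.27 ± 0.07 (SE, adjusted p = 0.087) did not pass, and without treatment the genotypes overlapped.

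**Figure D3:**
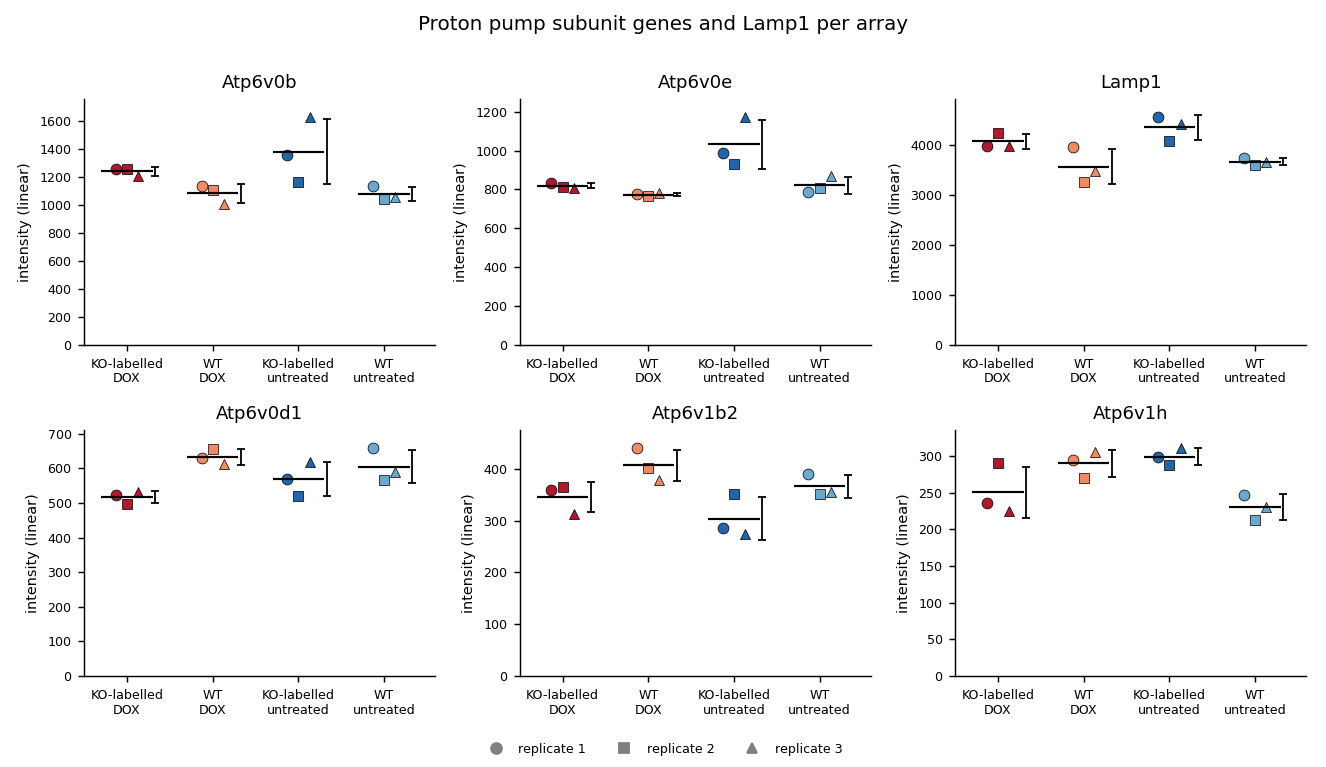
Linear intensity (vertical axis, from 0) of 5 pump subunit genes and Lamp1 on each array, with group means (lines) and SD over 3 arrays (bars). Atp6v0b, Atp6v0e and Lamp1 have all knockout-labelled arrays above the WT arrays with and without DOX, Atp6v1b2 has them below, and Atp6v1h lies above WT without treatment but overlaps it after DOX.

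Lamp1 followed Atp6v0b, with 3991, 4252 and 3994 in knockout-labelled and 3961, 3274 and 3494 in WT hearts after DOX, and 4565, 4082 and 4431 in knockout-labelled and 3744, 3605 and 3659 in WT hearts without treatment. Its genotype log2 fold changes were 0.19 after DOX (adjusted p = 0.20) and 0.25 without treatment (adjusted p = 0.11). Atp6v1b2, for the B subunit of the ATP-hydrolysing head, read 359, 366 and 312 in knockout-labelled and 439, 402 and 379 in WT hearts after DOX, and 286, 351 and 274 in knockout-labelled and 391, 352 and 355 in WT hearts without treatment. All knockout-labelled arrays lay below the WT arrays in each pair, with log2 fold changes of -0.22 after DOX (adjusted p = 0.29) and -0.25 without treatment (adjusted p = 0.23). A dimmer Atp6v1b2 probe set, of mean 102, had only -0.05 after DOX and -0.02 without treatment. Of the 8 V1 genes of mean 64 or more, 7 had a negative log2 fold change after DOX (87.5%), median -0.07, and 4 had one without treatment (50%), median 0.02. Of all 9387 genes of that brightness, 58.2% had a negative one after DOX, median -0.04, and 54.2% without treatment, median -0.02. Of the 6 V0 genes of that brightness, 4 were positive in each comparison, with medians of 0.13 after DOX and 0.25 without treatment.

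Counted by arrays that did not overlap, 9 of the 41 genes were higher and 5 lower in knockout-labelled hearts after DOX, where 11.2% of all probe sets were higher and 9.13% lower in this way. Without treatment 10 were higher and 3 lower, where 8.7% of all probe sets were higher and 10.7% lower. Of the 28 genes of mean 64 or more, 7 were higher and 5 lower after DOX, beside 1077 and 1565 of all 9387 genes of that brightness. Without treatment 10 of the 28 were higher and 1 lower, beside 1303 and 1747 of the 9387. The 2 genotype comparisons share no arrays. In both of them 6 genes, Atp6v0a2, Atp6v0b, Atp6v0e, Ctsb, Ctsd and Lamp1, had the knockout-labelled arrays on top, which is 14.6% of the 41 against 2.18% of all probe sets. All 6 had a mean of 64 or more, which is 21.4% of the 28 such genes against 4.44% of all probe sets of that brightness. Only Atp6v1b2 was below in both. This is 2.44% of the 41 against 2.66% of all probe sets, and 3.57% of the 28 against 6.19% of probe sets of that brightness. Other genes were apart in 1 genotype comparison, and none of these passed. Without treatment Ctsa, for a serine carboxypeptidase that also protects other lysosomal enzymes, stood at 0.32 (adjusted p = 0.057), and the V1 genes Atp6v1h and Atp6v1f at 0.34 and 0.30 (adjusted p = 0.084 and 0.098). After DOX Ctsh, for an aminopeptidase of the cysteine class, stood at -0.28 (adjusted p = 0.12) and Atp6v1c1, for a stalk subunit, at -0.16 (adjusted p = 0.28).

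DOX raised 1 of the 41 genes in WT hearts. Ctsl (Entrez gene 13039), for the cysteine protease cathepsin L, read 3939.9, 4008 and 3285 in WT hearts after DOX against 1812, 1773 and 1607 in untreated WT hearts. All 3 DOX arrays lay well above the untreated arrays, and the log2 fold change of 1.10 ± 0.16 (SE, adjusted p = 0.016) corresponds to a 2.14-fold higher value. In knockout-labelled hearts Ctsl read 3772, 3237 and 2466 after DOX against 2479.8, 2285 and 3179.8 without treatment, and these groups overlapped, with a log2 fold change of 0.24 ± 0.16 (SE, adjusted p = 0.53). The difference of the 2 responses was -0.85 (95% interval -1.36 to -0.34, adjusted p = 0.44), so it did not pass. Untreated knockout-labelled arrays lay above untreated WT arrays by 0.59 (adjusted p = 0.11), and after DOX the genotypes overlapped at -0.26 (adjusted p = 0.50). The Ctsl call in WT hearts ended without WT DOX replicate 1 (adjusted p = 0.052) or 2 (0.057) and without WT untreated replicate 2 (0.055) or 3 (0.071), while its log2 fold change stayed between 1.04 and 1.19. It also ended with the test named in the methods (adjusted p = 0.15). A dim second Ctsl probe set, of mean 42.1, had 0.09 for DOX in WT hearts and 0.42 in knockout-labelled hearts. Its genotype differences, 0.21 after DOX and -0.11 without treatment, had the opposite sign to those of the brighter probe set.

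On their brightest probe sets cathepsins S, C and Z read lower after DOX without passing the test. Ctss encodes a cysteine protease of antigen-presenting cells that cuts the invariant chain. In knockout-labelled hearts it read 472, 578 and 477 after DOX and 804, 526 and 1039 without treatment, which overlapped, with a log2 fold change of -0.56 ± 0.24 (SE, adjusted p = 0.28). In WT hearts it read 354, 448 and 275 after DOX and 545, 693 and 749 without treatment, groups that were apart, with a log2 fold change of -0.84 ± 0.24 (SE, adjusted p = 0.087). Between the genotypes after DOX its knockout-labelled arrays lay above the WT arrays, at 0.49 (adjusted p = 0.37).

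Ctsc encodes dipeptidyl peptidase I, which activates the serine proteases of immune cell granules. It read 275, 329 and 336 after DOX and 547, 376 and 689 without treatment in knockout-labelled hearts, a log2 fold change of -0.69 ± 0.19 (SE, adjusted p = 0.10). In WT hearts it read 281, 391 and 396 after DOX and 617, 563 and 649 without treatment, a log2 fold change of -0.74 ± 0.19 (SE, adjusted p = 0.071). The DOX arrays lay below the untreated ones in both genotypes. A dim Ctsc probe set, of mean 12.7, was called for DOX in WT hearts, at -0.18 (adjusted p = 0.017). Another dim Ctsc probe set, of mean 13.4, had -0.22 there (adjusted p = 0.20). Ctsz, for a carboxypeptidase that is abundant in macrophages, read 204, 211 and 220.4 after DOX and 350.1, 225 and 478 without treatment in knockout-labelled hearts, at -0.60 (adjusted p = 0.16). In WT hearts Ctsz read 207, 218 and 181 after DOX and 264, 230.1 and 246 without treatment, at -0.25 (adjusted p = 0.55). Its DOX arrays, too, lay below the untreated arrays in each genotype.

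**Figure D4:**
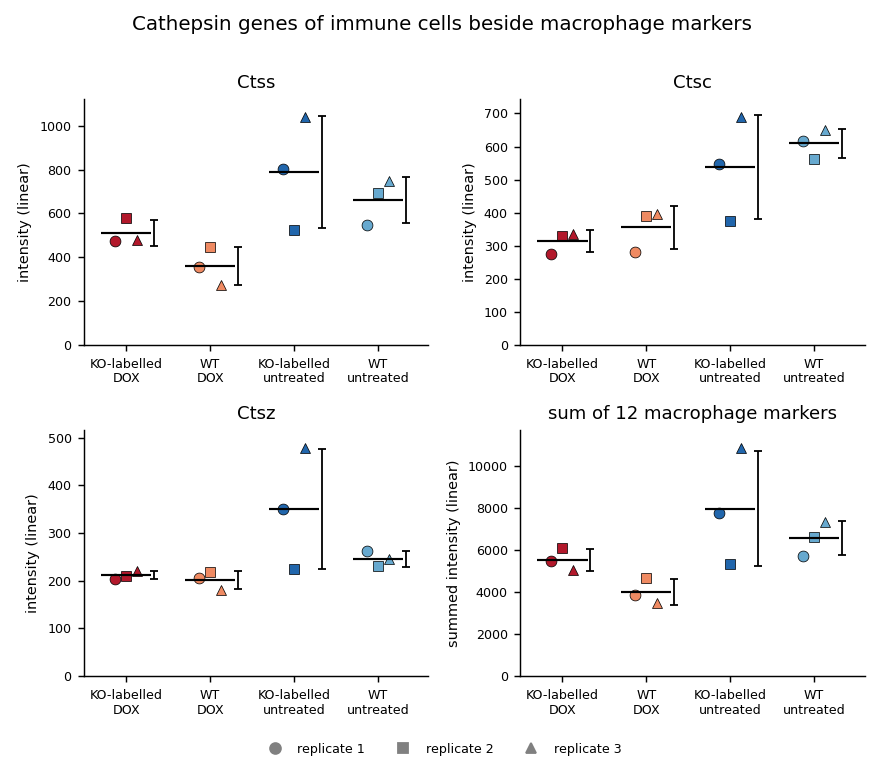
Linear intensity (vertical axes, from 0) of Ctss, Ctsc, Ctsz and the sum of 12 macrophage markers on each array, with group means (lines) and SD over 3 arrays (bars). The untreated knockout-labelled arrays spread most in all 4 panels, with replicate 3 highest (a marker sum of 10861) and replicate 2 lowest (5350).

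Most of the 12 macrophage markers, like these 3 genes, had negative log2 fold changes for DOX, 11 in knockout-labelled and 10 in WT hearts. In knockout-labelled hearts their sum was 5057 to 6104 after DOX against 5350 to 10861 without treatment, with a median log2 fold change of -0.37 over the 12. In WT hearts it was 3465 to 4695 after DOX against 5743 to 7355 without treatment, with a median of -0.61, and Cd68 (-0.95, adjusted p = 0.019) and Csf1r (-0.75, adjusted p = 0.016) fell. Between the genotypes the 3 genes did not all follow the markers, whose median was 0.34 after DOX and 0.15 without treatment. There Ctsc had -0.16 after DOX and -0.21 without treatment, Ctsz 0.06 and 0.40, and Ctss 0.49 and 0.20. Within the untreated knockout-labelled group, replicate 3 was highest and replicate 2 lowest in Ctss, Ctsc, Ctsz and the marker sum alike. Without knockout-labelled untreated replicate 2 the DOX response of Ctsc was -0.91 (adjusted p = 0.027) and that of Ctsz -0.86 (adjusted p = 0.014). Without knockout-labelled untreated replicate 3 they were -0.50 (adjusted p = 0.22) and -0.36 (adjusted p = 0.29). The fibroblast markers were lower after DOX as well, with medians of -0.97 in knockout-labelled and -0.60 in WT hearts. The cardiomyocyte sum was 125444 to 146727 in WT hearts after DOX against 147191 to 152081 in untreated WT hearts, all DOX arrays being lower, and overlapped in knockout-labelled hearts. The part of these cell types in the values of the cathepsins was not tested.

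By arrays that did not overlap, DOX put 3 of the 41 genes higher and 8 lower in knockout-labelled hearts, where 11.1% of all probe sets were higher and 9.59% lower. Of the 28 genes of mean 64 or more, 1 was higher and 8 lower, beside 1317 and 1715 of all 9387 genes of that brightness. In WT hearts DOX put 5 of the 41 higher and 10 lower, where 11.6% of all probe sets were higher and 12.8% lower. Of the 28 genes, 4 were higher and 7 lower there, beside 1691 and 1757 of the 9387. The 0 calls in knockout-labelled hearts stand beside 13 genes with an unadjusted p under 0.05 from limma, 2 higher (4.88%) and 11 lower (26.8%), where 7.76% of all probe sets were higher and 8.39% lower. All 11 lower genes had a mean of 64 or more, and of all genes of that brightness 18.2% were lower in this way. Atp6v1a, for the catalytic A subunit of the pump, read 212, 205 and 207 after DOX and 262, 231 and 268 without treatment in knockout-labelled hearts, and 189.9, 207 and 175 after DOX and 222, 235 and 241 without treatment in WT hearts. The groups were apart in both genotypes, at -0.25 in knockout-labelled (adjusted p = 0.071) and -0.25 in WT hearts (adjusted p = 0.059). Atp6v0e had the smallest p in knockout-labelled hearts, at -0.32 (adjusted p = 0.052), and stood at -0.08 (adjusted p = 0.61) in WT hearts. In knockout-labelled hearts it passed without untreated replicate 2 (adjusted p = 0.027) or 3 (-0.22, adjusted p = 0.047). Over the other left-out arrays it did not pass, with an adjusted p of up to 0.14.

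Other members with small p for DOX did not pass either. In knockout-labelled hearts Ctsh read 426, 458 and 416 after DOX and 528, 545 and 528 without treatment, at -0.28 (adjusted p = 0.097). Ctsa read 639, 634 and 628 after DOX and 760.3, 675 and 815 without treatment in the same hearts, at -0.23 (adjusted p = 0.14). Ctsb had -0.21 for DOX in knockout-labelled hearts (adjusted p = 0.20) and -0.31 in WT hearts (adjusted p = 0.060). A dimmer Ctsb probe set of mean 376 was called for DOX in WT hearts, at -0.28 (adjusted p = 0.029), so that on it Ctsb fell. Atp6v1d, Atp6v1g1, Atp6v1e1 and Atp6v1f, V1 genes that are among the 10 with the highest mean, did not pass and had DOX log2 fold changes of -0.05, -0.09, 0.09 and -0.16 in knockout-labelled and 0.01, 0.01, 0.08 and 0.18 in WT hearts. Another Atp6v1g1 probe set, of mean 1465, had the opposite sign in knockout-labelled hearts, at 0.26, and 0.02 in WT hearts.

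The interaction, which sets the DOX response of knockout-labelled hearts against that of WT hearts, called 0 of the 41 genes and 0% of all probe sets. At an unadjusted p under 0.05, limma gave 9 of the 41, 3 with a positive and 6 with a negative difference, and 1926 positive and 1988 negative probe sets in all. These are 22% of the 41 against 8.69% of all probe sets. Of the 28 genes of mean 64 or more 25% were under 0.05, against 13.3% of all genes of that brightness. The smallest p was that of Atp6v1h, for the regulatory H subunit that joins the sectors. It read 235, 290.4 and 225 after DOX and 299, 287 and 310.0 without treatment in knockout-labelled hearts, at -0.24 (adjusted p = 0.20). In WT hearts it read 295, 269 and 306 after DOX and 247, 212 and 231 without treatment, at 0.30 (adjusted p = 0.090). The difference of the responses was -0.53 (95% interval -0.80 to -0.27, adjusted p = 0.36). The WT groups were apart with DOX on top and the knockout-labelled groups overlapped. A dim second Atp6v1h probe set, of mean 29.6, rose with DOX in WT hearts by 0.43 (adjusted p = 0.023). The interaction of Atp6v1f was -0.34 (adjusted p = 0.50), of Ctsa -0.27 (0.53), of Ctsh -0.27 (0.55), of Tfeb 0.26 (0.55) and of Ctse 0.68 (0.53).

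Tfeb itself did not pass in any comparison. It read 188, 167 and 202 in knockout-labelled and 164, 152 and 175 in WT hearts after DOX, and 175, 169 and 169.7 in knockout-labelled and 209, 179 and 174 in WT hearts without treatment, and the groups overlapped in every comparison. Its log2 fold changes lay between -0.16 (adjusted p = 0.26), for DOX in WT hearts, and 0.15 (adjusted p = 0.37), between the genotypes after DOX. Lamp2, whose protein also serves in autophagy by chaperones, read 2429.7, 2508 and 2688 in knockout-labelled and 2241, 2621 and 2627 in WT hearts after DOX, and 2437, 2422 and 2887 in knockout-labelled and 2447, 2378 and 2194 in WT hearts without treatment. The groups overlapped in every comparison. Its probe sets differed in size and sign. Between the genotypes after DOX the brightest had a log2 fold change of 0.03 and the other 3 had -0.05, -0.52 and -0.38, and for DOX in WT hearts the brightest had 0.09 and the others 0.16, 0.65 and 0.50. The lowest adjusted p among these was 0.054.

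The 13 genes of mean under 64 were Atp6v0a4, Atp6v0d2, Atp6v1b1, Atp6v1c2, Atp6v1e2, Atp6v1g2, Ctse, Ctsg, Ctsj, Ctsm, Ctsq, Ctsr and Ctsw. Several of these are known from other organs, such as the pump subunits of the kidney and Ctsj, Ctsm, Ctsq and Ctsr of the mouse placenta. None was called. At an unadjusted p under 0.05 limma gave 1 of the 13 between the genotypes after DOX, 2 between them without treatment, 1 for DOX in knockout-labelled hearts, 2 for DOX in WT hearts and 2 for the interaction. These are 7.69% of the 13 for a single gene and 15.4% for 2, against 15.5% of all probe sets between the genotypes after DOX, 14.1% between them without treatment, 16.2% for DOX in knockout-labelled hearts, 18.8% for DOX in WT hearts and 8.69% for the interaction. The widest range was that of Ctse, 25.1 to 101 over the 12 arrays. Ctse read 33.7, 32.04 and 44.5 in knockout-labelled and 57.1, 75.6 and 101 in WT hearts without treatment, at -0.66 (adjusted p = 0.10), and its DOX response in WT hearts was -0.55 (adjusted p = 0.12), or -0.37 (adjusted p = 0.22) without WT DOX replicate 3. Ctsg, of neutrophil granules, ranged over 9.04 to 11.6, and Ctsw, of cytotoxic lymphocytes, over 21.9 to 28.4. Ctsw had 0.10 between the genotypes after DOX (adjusted p = 0.19), 0.11 for DOX in knockout-labelled hearts (adjusted p = 0.12) and an interaction of 0.18 (adjusted p = 0.42). Atp6v1c2 stood at -0.10 (adjusted p = 0.13) for DOX in WT hearts.

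Other lysosomal genes were followed in 6 lists, all of them chosen with earlier results of these arrays known. Of 27 measured hydrolases outside the cathepsins, Asah1, for acid ceramidase, fell with DOX in both genotypes. It averaged 623 ± 6.26 after DOX and 816 ± 21.2 without treatment in knockout-labelled hearts (SD, n = 3 each), a log2 fold change of -0.37 ± 0.04 (SE, adjusted p = 0.0077), and 609 ± 36.8 after DOX and 802 ± 36.8 without treatment in WT hearts, a log2 fold change of -0.38 ± 0.04 (SE, adjusted p = 0.0094). Lgmn, for the protease legumain, fell with DOX in knockout-labelled hearts, with a log2 fold change of -0.50 ± 0.10 (SE, adjusted p = 0.039). Tpp1, for tripeptidyl peptidase I, was higher in untreated knockout-labelled than in untreated WT hearts, at 939 ± 112 against 605 ± 77.6 (SD, n = 3 each), a log2 fold change of 0.61 ± 0.11 (SE, adjusted p = 0.027). The median of the 27 was 0.09 between the genotypes both after DOX and without treatment, -0.10 for DOX in knockout-labelled hearts and -0.03 for DOX in WT hearts.

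Among 15 genes of the lysosomal membrane and transport, Scarb2, which encodes the receptor that carries glucocerebrosidase, rose with DOX in both genotypes, by 0.30 in knockout-labelled and 0.28 in WT hearts (adjusted p = 0.048 and 0.04998). Laptm4b fell with DOX in knockout-labelled hearts, at -0.36 (adjusted p = 0.013), and Laptm4a was higher in knockout-labelled than in WT hearts after DOX, at 0.25 (adjusted p = 0.047). Of 14 genes for sorting to the lysosome, M6pr, for the smaller mannose 6-phosphate receptor, fell with DOX in knockout-labelled hearts, at -0.36 (adjusted p = 0.027). Gga2, for an adaptor of that receptor, was lower in untreated knockout-labelled than in WT hearts, at -0.56 (adjusted p = 0.022). None of 7 pump accessory genes and none of 9 cathepsin inhibitor genes was called by limma. At an unadjusted p under 0.05 from limma, the accessory list held 2 of 7 for DOX in knockout-labelled and 1 of 7 in WT hearts. In its other comparisons it held 0. The inhibitor list held 3 of 9 for DOX in knockout-labelled and 1 in WT hearts. It held 2 between the untreated genotypes, 0 between them after DOX and 1 in the interaction. Of all probe sets, between 8.69% (interaction) and 18.8% (DOX in WT hearts) were under 0.05 in a comparison. Of 22 genes of the TFEB family and its control, Mtor, for the kinase that keeps TFEB in the cytosol, stood at 0.43 (adjusted p = 0.054) for DOX in knockout-labelled hearts and rose with DOX in WT hearts, at 0.43 (adjusted p = 0.044). Mitf, for a factor of the TFEB family, was lower in untreated knockout-labelled than in WT hearts, at -0.67 (adjusted p = 0.026), and Ppp3ca, for the catalytic subunit of calcineurin, was lower in knockout-labelled than in WT hearts after DOX, at -0.35 (adjusted p = 0.038). In the interaction test none of the genes on these 6 lists was called.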

How the data were processed

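Heart RNA was measured on 12 Affymetrix arrays, 3 in each of 4 groups defined by the labels. The deposited linear intensity values, 1 per probe set and array, were made by the authors with Affymetrix Expression Console. Neither its version nor its summary method is given in the sources used here, and no further scaling was applied. Of the 45037 probe sets 34945 name 1 gene, 932 several and 9160 none, and all 41 genes of the rule were matched by Entrez ID. Intensities plus 32 were log2 transformed and fitted with limma 3.58.1 in R 4.3.3 (lmFit over all 12 arrays with 4 group means, eBayes without trend, two-sided). The Benjamini-Hochberg adjustment ran over every probe set of the table. The steps were tested on simulated data. The methods name a t-test or ANOVA without stating which served for the arrays.

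Named with values are the called genes, the 8 with the smallest p in each comparison, the 10 of highest mean, Lamp1, Lamp2 and Tfeb. From the other lists every called gene is named. The members and all lists were chosen with earlier results of these data known. Promoters come from RefSeq. Tables and plots were made with pandas 2.3.3 and matplotlib 3.10.9 in Python 3.11.15. With 3 arrays a group, the smallest exact permutation p is 0.1. The alternatives were other scalings, variance models, array weights, added values of 8 or 64, a filter at a mean of 64, other choices of probe set, a fit to the arrays compared alone, the replicate number as a block, and leaving out each array.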

Additional observations from a re-analysis of the deposited data

How the results depend on the processing

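No call changed its direction under any alternative tried, and the interaction test called 0 of the 41 genes under each alternative that applies to it (neither the fit to 6 arrays nor the t-test does). The numbers of genes called were small and moved with some settings, as follows. For the genotype difference after DOX, with 1 gene called, the count was 2 with quantile normalization and with all probe sets of a gene averaged, and 0 in a fit to the 6 arrays compared and with the methods' t-test. For the genotype difference without treatment, with 3 called, it was 7 with array weights, with only probe sets of mean 64 or more and with all probe sets of a gene averaged, 5 with 1 probe set per gene tested, 1 in the fit to the 6 arrays and 0 with the methods' t-test. For DOX in knockout-labelled hearts, with 0 called, it was 1 with quantile normalization, with array medians subtracted and with 1 probe set per gene tested, and 2 with array weights, with only probe sets of mean 64 or more and with all probe sets of a gene averaged. For DOX in WT hearts, with 1 called, it was 3 with quantile normalization and with 1 probe set per gene tested, 2 with the trended and robust variance and with 8 added before the log2, 5 with array weights, 4 with only probe sets of mean 64 or more, 6 with all probe sets of a gene averaged and 0 with the methods' t-test. The settings with 1 probe set per gene or without dim probe sets adjust over fewer tests, and for the others the cause was not tested. With the methods' t-test the adjusted p of the 5 calls lay between 0.15 and 0.37. Of the estimates for single named genes, 403 kept their side of the threshold under these settings and 261 without an array, 42 and 8 passed only there, and 12 and 19 no longer passed. Leaving out each array in turn gave 0 to 1 calls between the genotypes after DOX, 0 to 7 without treatment (7 without knockout-labelled untreated replicate 2, and 0 without WT untreated replicate 2 or 3), 0 to 4 for DOX in knockout-labelled hearts (4 without knockout-labelled untreated replicate 2) and 0 to 2 for DOX in WT hearts.

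Arrays with the same number did not deviate together (correlations of their deviations from -0.25 to 0.15, with 3 of 18 pairs over 0.1), so the numbers were not taken to pair them. With the replicate block the counts were 1 between the genotypes after DOX (Ctsh in place of Ctsb), 2 without treatment, 2 for DOX in knockout-labelled hearts (Atp6v0e and Ctsh) and 1 for DOX in WT hearts. Precision is limited by the few arrays in each group, and for the 13 dim genes also by their low signal.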
